A study of Mus musculus with 36 samples.

Results

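The genes described here were Zscan4c, Zscan4d, Zscan4f, Zfp352, Tcstv3 and Pramef8, 6 of the 21442 genes in the table of read counts. They were chosen by name, on having a row in the count tables that covered iPSC clones and ESCs of both genotypes and the reprogramming days. The names were proposed with earlier KO against WT results of these data in view, so the tests below are not independent evidence for the choice of these genes. RNA was sequenced from 36 mouse libraries, 3 in each of 12 groups, made of 6 stages in WT and Zfp266 KO cells. Zfp266 encodes a KRAB zinc finger protein, and the comparisons ask how its loss changed expression before, during and after reprogramming.

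The MEFs and reprogramming cells were embryonic fibroblasts labelled as 129 strain that carried Cas9, a Nanog-GFP reporter and a doxycycline-inducible cassette of the reprogramming factors Oct4, Sox2, Klf4 and c-Myc with mOrange (Cas9 TNG MKOS). In these stages WT cells received a control sgRNA and KO cells an sgRNA against Zfp266, both by lentivirus. MEFs were harvested 96 h after transduction. For reprogramming, the Cas9 MEFs were mixed with WT 129 MEFs and cultured with 300 ng/ml doxycycline and 10 µg/ml vitamin C, and mOrange+ cells were sorted at day 3, day 5 or day 7. KO cells of these stages were therefore edited populations and not clones. The iPSC libraries were 3 control and 3 KO single-cell clones, grown from Nanog-GFP+ cells sorted at day 15 and kept without doxycycline and with puromycin, to which the reporter gives resistance. The ESC WT libraries were 3 samples of 1 parental line. The 3 ESC KO libraries came from clones of that line, edited by transfection of a Zfp266 sgRNA plasmid that was later lost. Differences in ESCs therefore also separate clones from a line.

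A small share of mouse ESCs and iPSCs passes for a time through a state that resembles the cells of the mouse embryo at the two-cell stage. In that state the transcription factor Dux and retroviral promoters of the MERVL type are active, and genes such as Zscan4, Zfp352 and Tcstv3 are transcribed. Zscan4 genes encode SCAN domain zinc finger proteins that are known for a role in telomere maintenance in ESCs. Zfp352 encodes a zinc finger protein of the early embryo, and Tcstv3 belongs to a small family first described at the two-cell stage. Pramef8 belongs to the Prame family of leucine-rich repeat proteins, many of which are expressed in germ cells and early embryos. In bulk libraries, more cells in such a state and more RNA per cell cannot be told apart.

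The 3 Zscan4 genes lie in 1 cluster on chromosome 7 of GRCm38. Zscan4c (ENSMUSG00000054272) spans chr7:11005745-11010547 on the plus strand, Zscan4d (ENSMUSG00000090714) chr7:11161374-11166159 on the minus strand and Zscan4f (ENSMUSG00000070828) chr7:11397915-11402318 on the plus strand. Zfp352 (ENSMUSG00000070902) spans chr4:90218820-90225702 and Pramef8 (ENSMUSG00000046862) chr4:143412426-143421091, both on the plus strand. Tcstv3 (ENSMUSG00000095821) spans chr13:120316878-120318178 on the plus strand. Each is annotated as protein coding, and the RefSeq symbol of Pramef8 is Pramel12.

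How well reads can be placed differed between these genes. Annotated transcripts were cut into windows of 75 bases, and a window was counted as shared if it also occurred in a transcript of another gene. Zscan4f shared 83.4% of 1946 windows, Zscan4c 78.6% of 2202 and Zscan4d 39.5% of 2198, each with 9 other genes. Zscan4c had 60.4% of its windows in common with Zscan4f and 60.8% with the pseudogene Zscan4-ps2. For Tcstv3 the share was 14.3% of 705 windows, in common with Tcstv1, Gm21818 and Gm21761. Zfp352 shared 2.9% of 2202 windows and Pramef8 0.0% of 4319. The 3 Zscan4 rows therefore cannot be read as 3 independent measurements. In the 11 libraries with at least 100 Zscan4f reads, the ratio of Zscan4c to Zscan4f reads stayed between 0.957 and 1.05, and that of Zscan4d to Zscan4f between 0.394 and 0.529.

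**Figure D1:**
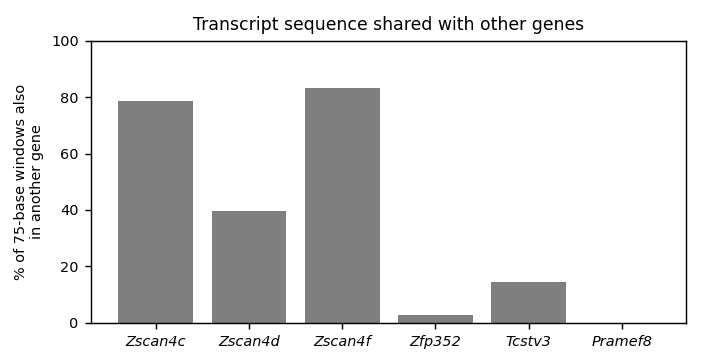
Percent of 75-base windows of each gene's annotated transcripts (y axis) that also occur in another gene, for the 6 genes (x axis). The bars of Zscan4f at 83.4% and Zscan4c at 78.6% are the highest, and those of Zfp352 at 2.9% and Pramef8 at 0.0% the lowest.

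The likeness of the Zscan4 copies extends to the DNA before their starts, which is shown to let the copies be compared. This DNA is not part of the transcripts and has no bearing on how reads were assigned. Upstream sequence was found for 4 of the 6 genes in the RefSeq table of GRCm38.p6. Over 216 bases, Zscan4c and Zscan4f differed at 1 position, Zscan4c and Zscan4d at 6, and Zscan4d and Zscan4f at 7. The windows are chr7:11005506-11005721 on the plus strand for Zscan4c, chr7:11166183-11166398 on the minus strand for Zscan4d and chr7:11397699-11397914 on the plus strand for Zscan4f. Capitals mark the 7 positions at which the 3 genes are not all alike.
Zscan4c: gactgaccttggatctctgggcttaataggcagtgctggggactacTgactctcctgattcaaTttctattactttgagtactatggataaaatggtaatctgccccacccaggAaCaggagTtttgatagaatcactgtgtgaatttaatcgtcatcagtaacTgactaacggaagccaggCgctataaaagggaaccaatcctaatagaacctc
Zscan4d: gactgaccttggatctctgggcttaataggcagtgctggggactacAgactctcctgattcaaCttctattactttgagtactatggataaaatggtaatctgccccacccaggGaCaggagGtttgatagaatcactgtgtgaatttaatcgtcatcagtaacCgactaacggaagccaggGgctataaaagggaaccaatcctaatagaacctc
Zscan4f: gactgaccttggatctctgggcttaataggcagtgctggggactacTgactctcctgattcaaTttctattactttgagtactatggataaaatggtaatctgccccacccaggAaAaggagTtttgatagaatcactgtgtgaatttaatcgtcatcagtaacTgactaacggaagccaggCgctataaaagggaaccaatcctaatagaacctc

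The 250 bases before Zfp352 (chr4:90218570-90218819, plus strand) held a tandem repeat. The stretch GACAACACAC, which is a part of the repeat, occurs 9 times and is in capitals.
Zfp352: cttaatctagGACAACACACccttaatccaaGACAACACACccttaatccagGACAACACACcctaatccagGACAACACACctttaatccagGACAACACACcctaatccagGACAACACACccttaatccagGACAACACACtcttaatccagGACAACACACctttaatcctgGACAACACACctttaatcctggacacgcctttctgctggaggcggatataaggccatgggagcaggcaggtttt
This stretch was searched for after it had been seen there, and it occurred in 14 of 32851 upstream windows of 250 bases (0.04%), counted on both strands. The letters TATAAA were found on either strand in 4063 windows (12.37%), and once in each of the 3 Zscan4 windows but not in that of Zfp352. A form of the DUX recognition sequence, GATTNAATC, was found in 81 windows (0.25%) and in none of these 4. A match or its absence describes these windows only.

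Library totals were between 19224103 and 39610939 reads. At 95% confidence a count of 0 allows up to 3 reads, which was 2.31 to 5.22 normalised reads depending on the library, where normalised reads are counts divided by the size factor of the library. This floor covers counting error only. The 95% intervals given for log2FC come from the DESeq2 fit and also hold the spread between replicate libraries. Zfp266 itself kept its reads in KO cells, with 2647 ± 151 normalised reads in WT and 2019 ± 170 in KO iPSC clones (SD, n = 3) and 2363 ± 109.7 and 2127 ± 138 in ESCs. Since the edits are small insertions and deletions, this count does not check the label. The summed level of 8 pluripotency markers was 115294 to 148437 normalised reads in the iPSC and ESC libraries and 21.2 to 32.2 in MEFs.

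One library stood apart in the two-cell genes. In iPS WT replicate 2, 24 of 12121 genes were below 10% of the mean of the other 2 WT clones, and all 9 Zscan4 rows were among them. The same count was 0 of 12044 genes for iPS WT replicate 1 and 1 of 12060 for iPS WT replicate 3. Its total of 34378360 reads was within the range of the series, and its correlation across genes was 0.979 and 0.981 with the other WT clones, which correlated at 0.984 with each other, and 0.966 to 0.969 with the KO clones, against 0.974 to 0.984 for the other WT clones. The iPSC calls of the 6 genes and the counts in the gene lists are therefore also given without this library. On the KO side, iPS KO replicate 2 had the highest level of the Zscan4 rows, Tcstv3 and Zfp352, and the lowest of Pramef8.

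**Figure D2:**
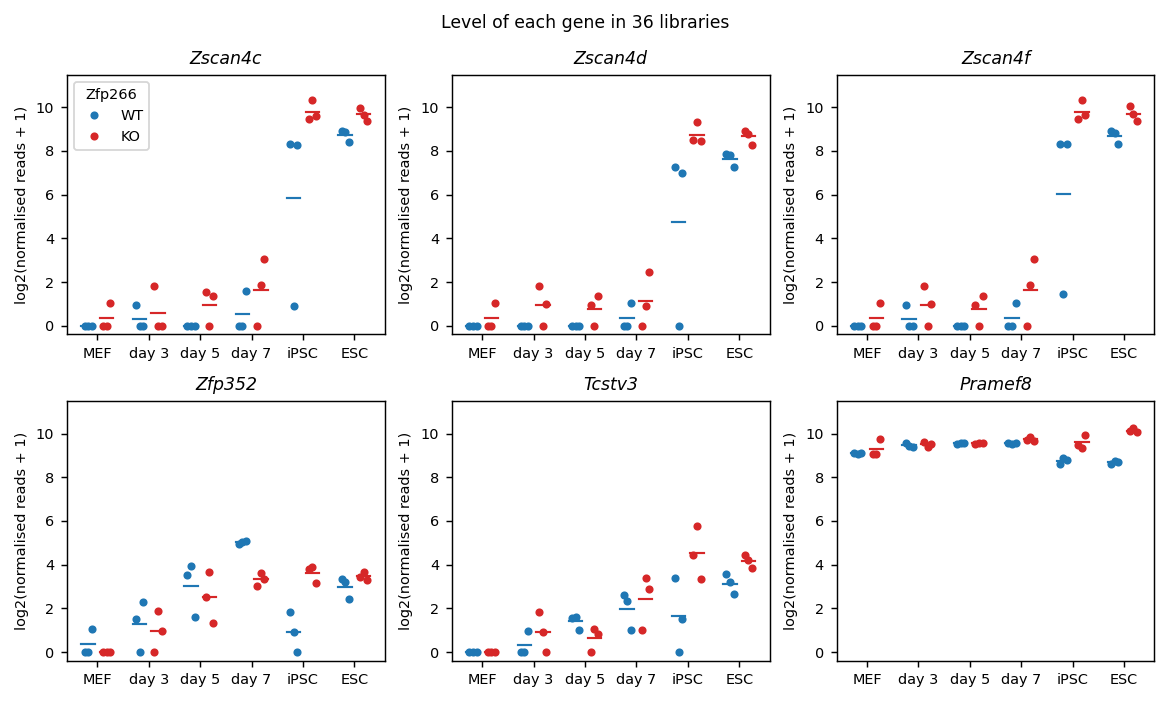
Level of each of the 6 genes as log2(normalised reads + 1) on the y axis, by stage on the x axis, with 1 point per library, WT in blue and KO in red, and a bar at the mean of the 3 points. The 3 Zscan4 genes are near 0 up to day 7 and high in iPSC clones and ESCs except in iPS WT replicate 2, while Pramef8 is high at each stage.

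The Zscan4 genes were near background in MEFs and at days 3, 5 and 7, and were expressed in iPSC clones and ESCs, with 1 WT clone as an exception. Up to day 7 no library had more than 8 reads in any of the 3 rows, and the highest was D7 KO replicate 3 with 8 Zscan4c, 5 Zscan4d and 8 Zscan4f reads. Per kilobase of exon, the mean levels in ESC KO libraries were 364 normalised reads for Zscan4c, 182 for Zscan4d and 434 for Zscan4f, against 268 for Pramef8, 22.1 for Tcstv3 and 4.47 for Zfp352. These levels across stages are a description.

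In iPSC clones Zscan4c stood at 319.5, 0.861 and 309.9 normalised reads in the 3 WT libraries and at 711, 1276 and 783 in the 3 KO libraries. In ESCs it stood at 487, 463 and 340 in WT and at 1015, 800.1 and 671 in KO. Every KO library was above every WT library at both stages. The low WT value was 1 read in iPS WT replicate 2.

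Zscan4d and Zscan4f followed the same order. Zscan4d had 155, 0 and 125 normalised reads in WT iPSC clones and 360.4, 638 and 345 in KO, and 229.95, 226 and 152 in WT ESCs and 488, 442 and 310.4 in KO. Zscan4f had 315, 1.72 and 318 in WT iPSC clones and 696, 1273 and 796 in KO, and 477, 450.5 and 323 in WT ESCs and 1057, 836 and 656 in KO. The means in iPSC clones were 212 ± 182 for WT and 922 ± 309 for KO in Zscan4f (SD, n = 3 each), so the WT error was nearly as large as the mean.

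With all libraries, none of the 3 Zscan4 rows passed the test in iPSC clones or ESCs. Here and below a gene is called if its adjusted p from the DESeq2 Wald test is under 0.05 and its log2FC is beyond 1 in either direction. In iPSC clones the log2FC of KO over WT was 2.14 for Zscan4c (SE 1.35, adjusted p = 0.305), 2.26 for Zscan4d (SE 0.96, adjusted p = 0.0873) and 2.12 for Zscan4f (SE 0.89, adjusted p = 0.0827). In ESCs it was 0.95 for Zscan4c (SE 1.35, adjusted p = 0.732), 1.03 for Zscan4d (SE 0.95, adjusted p = 0.560) and 1.03 for Zscan4f (SE 0.89, adjusted p = 0.521).

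The iPSC calls turned on iPS WT replicate 2. Without it, Zscan4c rose by 1.55 (DESeq2 adjusted p = 1.85e-05), Zscan4d by 1.68 (adjusted p = 8.27e-05) and Zscan4f by 1.54 (adjusted p = 4.43e-05) on the log2 scale, and all 3 rows were called. Over 15 alternatives in iPSC clones each row was called in 3, with adjusted p from 1.85e-05 to 0.576 for Zscan4c. The ratio of the KO to the WT mean in Zscan4c fell from 4.39 with all libraries to 2.93 without that one. The ESC ratios of 1.93 for Zscan4c, 2.04 for Zscan4d and 2.04 for Zscan4f do not involve it, but the spread in the fit is shared. When iPS WT replicate 2 was left out of the fit, Zscan4d (log2FC 1.03, adjusted p = 0.0110) and Zscan4f (log2FC 1.03, adjusted p = 0.00362) were called in ESCs as well, and Zscan4c had log2FC 0.95 (adjusted p = 0.00601), just under the fold limit. When the near copies were summed into 1 row before the fit, the Zscan4 family had log2FC 2.13 in iPSC clones (DESeq2 adjusted p = 0.470). edgeR's quasi-likelihood test with all libraries called the 3 rows in iPSC clones, with log2FC 2.13 and adjusted p = 0.0149 for Zscan4c, and none of them in ESCs.

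**Figure D3:**
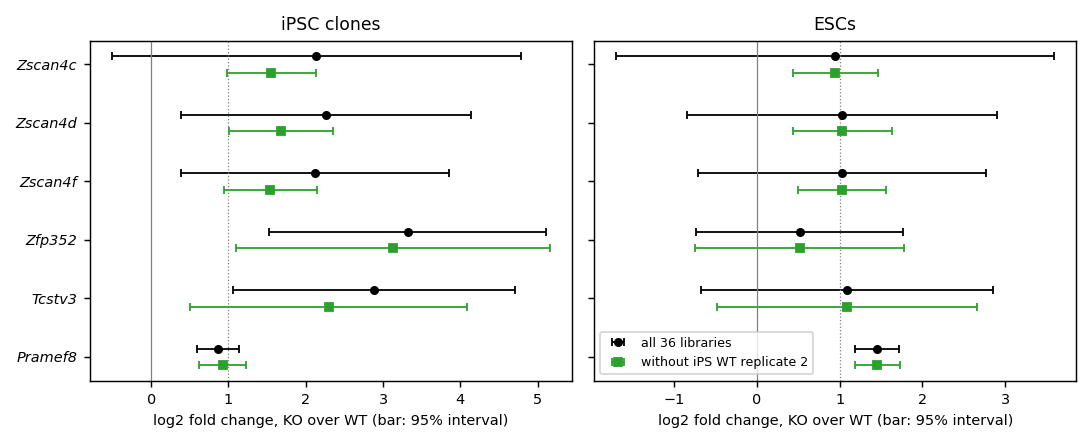
Log2FC of KO over WT (x axis) with its 95% interval in iPSC clones (left) and ESCs (right), from all 36 libraries (black circles) and without iPS WT replicate 2 (green squares), where dotted lines mark the fold limit of 1. The Zscan4c interval in iPSC clones spans 0 with all libraries and lies above 0 without that library, while Pramef8 changes little.

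Tcstv3 was low in all stages and rose in KO iPSC clones. It had no read in any MEF library and 3 reads or less per library at days 3 and 5. Its WT iPSC values were 9.50, 0 and 1.86 normalised reads and its KO values 21.0, 53.8 and 9.09, so the lowest KO clone was just below the highest WT clone. In ESCs the values were 11.05, 8.10 and 5.21 in WT and 20.6, 17.5 and 13.5 in KO, without overlap. At day 7 they were 5.07, 4.03 and 1.03 in WT and 1.00, 9.63 and 6.35 in KO, with full overlap. The log2FC was 2.88 in iPSC clones (SE 0.93, adjusted p = 0.0171), 1.09 in ESCs, where low counts left it without an adjusted p, and 0.76 at day 7 (adjusted p = 0.635).

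The Tcstv3 call in iPSC clones was lost in several alternatives. Without iPS WT replicate 2 the log2FC was 2.30 (DESeq2 adjusted p = 0.0883), it was 2.56 (adjusted p = 0.0754) when iPS WT replicate 3 was left out and 1.99 (adjusted p = 0.171) when iPS KO replicate 2 was, and over 15 alternatives adjusted p was between 0.00182 and 0.171, with 10 of them called. Summed with its near copy Tcstv1, the log2FC was 2.95 (adjusted p = 0.00886). Tcstv1 alone was also higher in KO iPSC clones, with log2FC 3.01 (adjusted p = 0.0179), and was not called without iPS WT replicate 2 (log2FC 2.42, DESeq2 adjusted p = 0.0589).

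Zfp352 had a course of its own. It was at 1 read or less per MEF library, was at 4 reads or less per library at day 3, and in WT cells stood at 10.7, 14.4 and 2.08 normalised reads at day 5 and 29.4, 32.2 and 32.9 at day 7, and was at 2.59, 0.861 and 0 in WT iPSC clones, which were 3, 1 and 0 reads. KO cells had 4.77, 11.54 and 1.54 normalised reads at day 5 and 7.03, 11.4 and 9.08 at day 7. At day 7 the highest KO library was below the lowest WT library. The KO iPSC clones had 12.98, 13.9 and 8.08, all above the WT clones. ESCs had 9.04, 8.10 and 4.34 in WT and 9.87, 11.7 and 8.97 in KO, where the lowest KO value was just under the highest WT value.

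Thus Zfp352 was lower in KO cells at day 7 and higher in KO iPSC clones. At day 7 it fell by 1.78 on the log2 scale (SE 0.59, adjusted p = 0.0116), from 31.5 ± 1.86 to 9.16 ± 2.18 normalised reads (SD, n = 3 each). In iPSC clones the log2FC was 3.32 (SE 0.91, adjusted p = 0.00384), from 1.15 ± 1.32 to 11.6 ± 3.12. In ESCs the log2FC was 0.52 with a 95% interval of -0.74 to 1.77 and no adjusted p. Because the WT iPSC clones held at most 3 reads, the fold there depends on the fit.

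The iPSC call of Zfp352 was kept without iPS WT replicate 2 (log2FC 3.13, DESeq2 adjusted p = 0.0301) and in 14 of 15 alternatives, with adjusted p from 0.00287 to 0.0798. It was lost when the iPSC libraries were fitted alone (log2FC 3.30, adjusted p = 0.0798). The day 7 call was lost without D7 WT replicate 3 (log2FC -1.75, adjusted p = 0.0519) and without D7 KO replicate 1 (log2FC -1.62, adjusted p = 0.0615), and was kept in 13 of 15 alternatives with adjusted p from 0.00302 to 0.0615. The direction was the same in every one of these at both stages. Markers of other states also differed at day 7. The sum of 8 pluripotency markers was 11486 to 16099 normalised reads in WT and 33099 to 42067 in KO, that of 8 fibroblast markers 21356 to 33545 and 6628 to 21004, and that of 6 trophoblast markers 1332 to 1752 and 2042 to 2544. Their part in the Zfp352 result was not tested. In a contrast chosen after the data were seen, the KO effect in iPSC clones exceeded that at day 7 by 5.09 on the log2 scale (SE 1.08, adjusted p = 5.79e-05), and this was called in each of 21 alternatives.

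**Figure D4:**
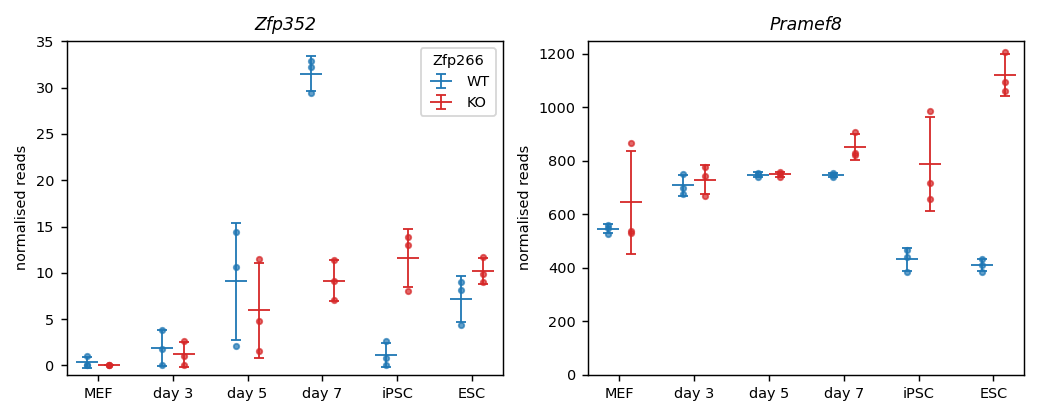
Normalised reads (linear y axes, which differ in range) of Zfp352 and Pramef8 by stage, with 1 point per library and the mean ± SD of the 3 libraries, WT in blue and KO in red. Zfp352 in WT peaks at day 7 at 31.5 and is at 1.15 in iPSC clones, and Pramef8 separates the genotypes in iPSC clones and ESCs.

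Pramef8 differed from the others in being expressed in fibroblasts, and in KO ESCs it was well above WT. MEFs had 560.01, 527 and 549.8 normalised reads in WT and 539, 529 and 865 in KO, and only MEF KO replicate 3 was outside the WT range. The means at days 3 and 5 were 708 ± 39.1 and 748 ± 8.70 in WT and 729 ± 55.0 and 748 ± 10.3 in KO (SD, n = 3 each), with overlap. At day 7 the WT values of 748, 738 and 755 lay below the KO values of 827, 907 and 822, and the log2FC of 0.19 did not pass (adjusted p = 0.318).

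In WT cells the Pramef8 level was lower in each iPSC and ESC library than in any day 7 library. Among KO cells the iPSC and day 7 values overlapped, and the ESC values lay above both. WT iPSC clones had 384, 467 and 442 normalised reads and KO clones 717, 657 and 986. WT ESCs had 386, 432 and 409.97 and KO ESCs 1094, 1207 and 1059.6. Every KO library was above every WT library at both stages. In ESCs the log2FC was 1.45 (SE 0.14, adjusted p = 3.00e-22), and it was called in 16 of 16 alternatives with adjusted p of at most 1.42e-07. In iPSC clones it was 0.87 (SE 0.14, adjusted p = 6.05e-08), which passes the test on p but lies just under the fold limit of 1. The iPSC value without iPS WT replicate 2 was 0.93 (adjusted p = 5.68e-07).

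Counted over the 6 genes, 0 were called in MEFs, 0 at day 3 and 0 at day 5, where 0.019%, 0.162% and 1.19% of all genes tested were called. In these 3 comparisons none of the 6 had an unadjusted DESeq2 p under 0.05, and edgeR called 0. Independent filtering left 4 of the 6 with an adjusted p at day 3, at day 5 and in ESCs. At day 7, 1 of 6 was called, Zfp352 as lower (8.37% of all genes called, 4.42% as lower). In iPSC clones 2 of 6 were called, Zfp352 and Tcstv3, both as higher (4.51% of all genes called, 3.95% as higher), and the count was 4 without iPS WT replicate 2 and 5 by edgeR. In ESCs 1 of 6 was called, Pramef8 (1.21% of all genes, 0.741% as higher). Every KO library was above every WT library for 5 of the 6 in iPSC clones and for 5 of the 6 in ESCs, against 11.4% and 16.4% of genes with reads in those libraries. The median log2FC of the 6 was 2.20 in iPSC clones and 1.03 in ESCs, and that of all genes 0.02 and 0.00. Without iPS WT replicate 2 the iPSC median was 1.62, and 5 of the 6 were again separated (14.4% of all genes). The 3 Zscan4 rows share reads and weigh as 3 in each of these counts.

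Between the pluripotent types, 0 of the 6 genes were called for iPSC clones against ESCs in WT (0.275% of all genes) and 0 in KO (1.46%), with 1 of 6 at an unadjusted DESeq2 p under 0.05 in each and 0 by edgeR. Independent filtering left only 3 of the 6 with an adjusted p in WT and 4 in KO. In WT Zfp352, which had none, was lower in every iPSC library than in every ESC library, with log2FC -2.60, and it was the gene at an unadjusted p under 0.05. In KO cells Pramef8 was lower in iPSC clones than in ESCs, with log2FC -0.51 (adjusted p = 0.00636), which is under the fold limit. The KO effect did not pass as different between iPSC clones and ESCs for any of the 6 (0.59% of all genes), with 2 at an unadjusted DESeq2 p under 0.05 and 0 by edgeR. Here 4 of the 6 had an adjusted p, and Zfp352 (95% interval of the difference 0.62 to 4.98) and Tcstv3 (1.80) had none. For Pramef8 the difference was -0.59 (adjusted p = 0.0990). No member was called in any of these without iPS WT replicate 2 either, and the difference was 2.62 for Zfp352 and -0.52 for Pramef8 (DESeq2 adjusted p = 0.204). Between iPSC clones and day 7 the KO effect differed for 1 of the 6, Zfp352 (9.16% of all genes).

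A wider list of genes of the two-cell state had 40 genes in the table, 34 of them other than the 6. In KO iPSC clones 20 of the 34 were called as higher and 0 as lower (3.95% of all genes called as higher), the log2FC was above 0 in all 34, and its median was 2.27. Every KO clone was above every WT clone for 29 of them (11.4% of all genes). Without iPS WT replicate 2 the log2FC was again above 0 in all 34, the median was 1.73 and 29 were separated (14.4% of all genes). In ESCs 0 of the 34 were called, of 17 with an adjusted p, while the log2FC was above 0 in 33 and its median was 0.65. Every KO ESC library was above every WT ESC library for 26 of them (16.4% of all genes). When the ESC libraries were fitted alone, 3 of the 34 were called as higher in ESCs, among 222 genes called in all. The ESC count was 0 by edgeR and 0 without iPS WT replicate 2. At day 7 0 were called, the log2FC was above 0 in 6 of the 34, and the median was -0.17. Only 18 of the 34 had a day 7 group mean above the floor. The called genes with the lowest adjusted p in iPSC clones were BB287469 (log2FC 1.31, adjusted p = 1.75e-09), Gm4027 (1.30, adjusted p = 8.66e-09), Gm2016 (1.73, adjusted p = 5.23e-08), Gm2022 (1.10, adjusted p = 9.00e-06) and Gm5039 (1.55, adjusted p = 1.98e-05). Without iPS WT replicate 2 these values were 1.17 for BB287469, 1.17 for Gm4027, 1.35 for Gm2016, 0.94 for Gm2022 and 1.17 for Gm5039, and Gm2022 was then under the fold limit. BB287469 stood at 115 ± 26.3 normalised reads in WT and 285 ± 73.8 in KO iPSC clones (SD, n = 3 each) and at 184 ± 29.9 and 247 ± 17.8 in ESCs. Many of these genes have near-identical copies, so the count does not stand for as many separate genes.

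The count in the list moved with the libraries and the fit, as did the number of all genes called in either direction. With all libraries it was 20 among 948 genes called. It was 19 among 611 when iPS WT replicate 2 was left out and 13 among 511 when iPS KO replicate 1 was. Without iPS KO replicate 2 it was 8 among 1079. It was 12 among 342 when the iPSC libraries were fitted alone and 31 among 986 by edgeR. The sum over the 40 genes was 899, 4168 and 4207 normalised reads in the WT iPSC libraries, with the lowest in replicate 2, and 9809, 9875 and 17784 in KO, with the highest in replicate 2. In ESCs the sum was 4888 to 6525 in WT and 9334 to 12002 in KO. Near-identical copies are separate rows in these sums, so reads shared by copies may enter them more than once. Of the 40 genes, 37 were lowest in iPS WT replicate 2 among the WT clones.

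**Figure D5:**
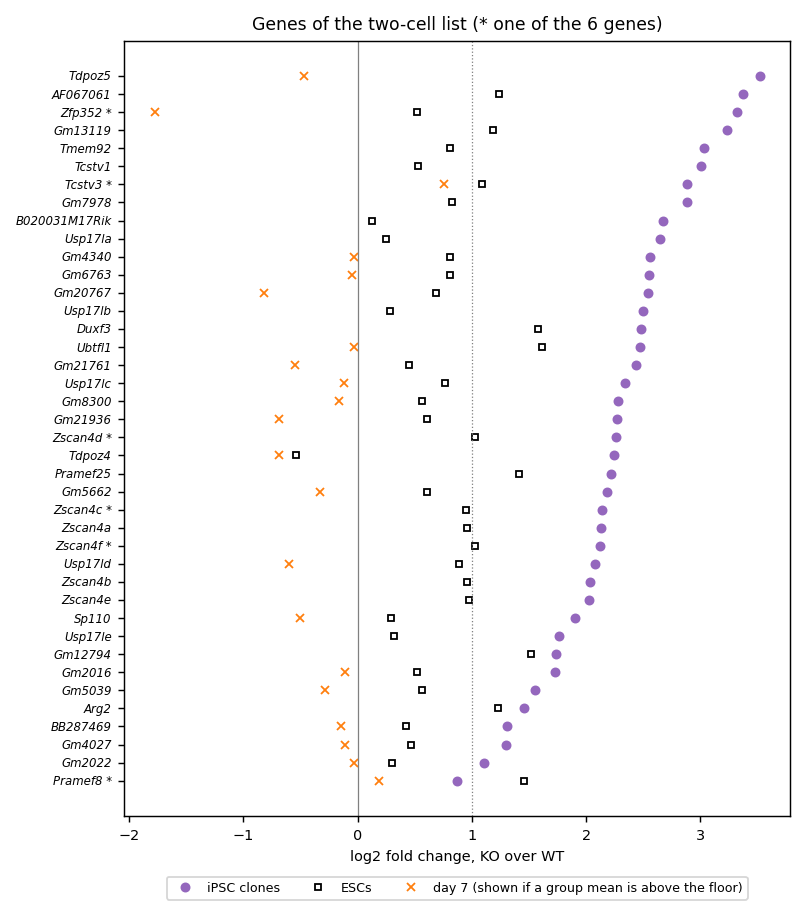
Log2FC of KO over WT (x axis) for the 40 genes of the two-cell list (y axis) in iPSC clones (purple circles), ESCs (open squares) and at day 7 (orange crosses, drawn where a group mean is above the floor), with dotted line at the fold limit of 1 and asterisks on the 6 genes. The circles all lie above 0, and Zfp352 is the cross farthest to the left.

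Genes that control the two-cell state were also followed. Of 30 regulators in the table, 3 were higher in KO cells at day 5 (0.808% of all genes called as higher) and the same 3 at day 7 (3.95% as higher), while 0 were called in iPSC clones, with or without iPS WT replicate 2, and 0 in ESCs. They were Dppa2 and Dppa4, a pair of chromatin proteins upstream of Dux, and the DNA demethylase Tet1, with log2FC at day 7 of 3.30 for Dppa2 (adjusted p = 7.16e-24), 3.07 for Dppa4 (adjusted p = 4.69e-47) and 2.31 for Tet1 (adjusted p = 7.00e-35). Dux itself, listed as Duxf3 and named here after its values were seen, had 20.7, 1.72 and 4.64 normalised reads in WT iPSC clones and 29.9, 77.3 and 44.4 in KO, and 6.02, 18.2 and 14.8 in WT ESCs and 35.9, 41.9 and 38.6 in KO. Every KO library was above every WT library for Duxf3 at both stages, as for 11.4% of genes with reads in iPSC clones and 16.4% in ESCs. Neither Duxf3 difference was called by DESeq2 with all 36 libraries. For the 30 regulators the iPSC count was 1, as higher, by edgeR (986 genes called in all) and without iPS WT replicate 1 (1089). It was also 1, as higher, with the iPSC libraries fitted alone (342). With the ESC libraries fitted alone the ESC count was 1, as higher (222 genes called in all).

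Among the 7 other Prame family genes in the table, 4 were higher in KO iPSC clones, 1 in KO ESCs and 2 at day 7 (3.95%, 0.741% and 3.95% of all genes called as higher). Pramel1 rose in both pluripotent types, from 42.0 ± 8.55 to 94.97 ± 21.6 normalised reads in iPSC clones (log2FC 1.17, adjusted p = 0.000953) and from 37.0 ± 5.97 to 105 ± 12.4 in ESCs (log2FC 1.51, adjusted p = 2.93e-05). The ESC call was lost when ESC WT replicate 2, ESC WT replicate 3 or ESC KO replicate 2 was left out, because Pramel1 then had no adjusted p, with log2FC of at least 1.39. Pramef17 was higher in KO iPSC clones (log2FC 3.24, adjusted p = 0.000307) and at day 7 (log2FC 3.85, adjusted p = 9.33e-05), and stood at 26.9 ± 4.33 in WT and 22.3 ± 9.87 in KO ESCs. Pramel7 (log2FC 3.51, adjusted p = 0.0142) and Pramel3 (log2FC 2.65, adjusted p = 0.0331) were the other two in iPSC clones, and Pramef12 the other one at day 7 (log2FC 2.68, adjusted p = 3.75e-11). Without iPS WT replicate 2 the iPSC count was 2, with log2FC 1.35 for Pramel1 (DESeq2 adjusted p = 0.00141) and 3.25 for Pramef17 (adjusted p = 0.00362), while Pramel7 had 3.04 (adjusted p = 0.0780) and Pramel3 had 2.71 and no adjusted p.

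Markers of other cell types were summed in the same libraries. The primitive endoderm sum of 7 genes was 153 to 196 normalised reads in WT iPSC clones and 174, 188 and 1672 in KO, where iPS KO replicate 1 was high. The fibroblast sum of 8 genes was 77.5 to 108 in WT and 111 to 198 in KO iPSC clones, against 375150 to 542263 in MEFs. Germ cell markers summed to 1172 to 1949 in WT and 1387 to 2766 in KO iPSC clones, and trophoblast markers to 533 to 2019 and 540.1 to 1784. In ESCs the germ cell sum was 1807 to 2164 in WT and 2589 to 3446 in KO without overlap, the fibroblast sum 73.0 to 84.3 and 91.5 to 132, the trophoblast sum 1677 to 1839.6 and 1444 to 1742, and the primitive endoderm sum 147 to 172 and 163 to 197. The part of these in the results above was not tested.

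The genes whose pattern over the 36 libraries was most like each of the 6 were found by Pearson correlation of log2(normalised reads + 1) among 17423 genes, as a description. For the 3 Zscan4 genes they were other rows of the same cluster, led by Zscan4-ps2 for Zscan4c (r = 0.998). For Zfp352 they were Tdpoz4 (r = 0.855), Cacna2d2 (r = 0.835) and Ggt1 (r = 0.826). For Tcstv3 they were AF067061 (r = 0.935), B020031M17Rik (r = 0.928) and Gm21818 (r = 0.925), which are in the two-cell list or share windows with it. For Pramef8 they were Babam2 (r = 0.781), Slc1a4 (r = 0.769) and Zkscan7 (r = 0.737). Among the 6 themselves, Zscan4c correlated with Tcstv3 at 0.824, with Zfp352 at 0.300 and with Pramef8 at -0.03. Over the 12 iPSC and ESC libraries, with each value taken as its deviation from the group mean, the most alike were Magef1 (r = 0.952), Ngdn (r = 0.950) and Dld (r = 0.927) for Zfp352, Fbxo27 (r = 0.971), Eif4a3l1 (r = 0.965) and Tcstv1 (r = 0.959) for Tcstv3, and Kirrel2 (r = 0.964), Bcl2l11 (r = 0.960) and Gbp2b (r = 0.933) for Pramef8. Over the 36 libraries, shared stages alone tie genes that are high in the same stages. The deviations gave the highest of 17423 values over only 12 libraries. Without iPS WT replicate 2, Dld stayed among the 3 for Zfp352, and Kirrel2 and Bcl2l11 among those for Pramef8. For Tcstv3 they were then Rfc3, Dus2 and Zfp868.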

How the data were processed

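RNA of 36 mouse libraries was sequenced after poly(A) selection with a stranded kit. The authors deposited raw read counts per gene and a normalised signal (normalised counts). Per the labels, FastQC, cutadapt, STAR, DESeq2 and GRCm38.p6 were used, without versions. The strand and multi-mapping settings of the counting are not given in the sources used here. The deposited signal equalled counts over median-ratio size factors (largest relative difference 4.98e-15). The authors' tables of fold changes and p-values and their transformed matrix were not used.

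Counts of all 36 libraries were fitted with DESeq2 1.42.0 in R 4.3.3, as 1 factor of 12 groups, with the Wald test and default independent filtering. Benjamini-Hochberg adjustment covered the genes left by this filtering, 12708 to 21436 depending on the comparison. Percentages of all genes called are of these genes. A gene was called at adjusted p under 0.05 and log2FC beyond 1. Alternatives were edgeR 4.0.16, other size factors and filters, a replicate block, the compared groups alone, summed copies and each library left out. Replicates measure the spread between populations or clones, except in WT ESCs, where they measure that between samples of 1 line. Sequence windows were taken from GENCODE vM21. Named genes were the 6, up to 5 called genes of each list with the lowest adjusted p, the 3 most alike in pattern, and Zfp266. The genes and lists were chosen with earlier results of these data known.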

Additional observations from a re-analysis of the deposited data

Results flagged for a closer look

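Zfp352 was lower in KO than in WT cells at day 7 and higher in KO than in WT iPSC clones, and the difference between these KO effects was 5.09 on the log2 scale (DESeq2 interaction contrast, SE 1.08, adjusted p = 5.79e-05). All 3 KO libraries lay below all 3 WT libraries at day 7, and above them in iPSC clones. The contrast was chosen after the data were seen, and the WT iPSC clones held 3 reads or fewer each. Day 7 cells were sorted edited populations and iPSCs were clones, so stage and kind of sample cannot be told apart here.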

How the results depend on the processing

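Of 170 counts of called genes recomputed, 155 stayed within 1.5 times of the reported one, and of 696 values of single genes 658 kept direction and side of the threshold. Much of the first tally is 0 matching 0. The reported count was 0 in MEFs, at days 3 and 5, and for iPSC clones against ESCs in either genotype. It was also 0 for the difference of the KO effect between iPSC clones and ESCs. The tally therefore does not measure how stable the counts above 0 are. The iPSC count of 2 was 5 with edgeR and 0 when the iPSC libraries were fitted alone (Zfp352 adjusted p = 0.0798, Tcstv3 0.116 by DESeq2), and 1 to 4 when 1 library was left out, with 4 without iPS WT replicate 2 in DESeq2 and in edgeR and 1 without iPS WT replicate 3 or iPS KO replicate 2. The ESC count of 1 was 3 when the ESC libraries were fitted alone and 3 without iPS WT replicate 2 in either tool. The day 7 count of 1 was 0 to 1 with a day 7 library left out, and 2 without iPS WT replicate 2, which adds Zscan4f (log2FC 3.22, DESeq2 adjusted p = 0.0421). The edgeR, ESC and day 7 fits without iPS WT replicate 2 were chosen after seeing the data. Adjusted p alone gave 1 for iPSC clones against ESCs in KO and 2 for the difference of the KO effect between iPSC clones and day 7, where the count was 1 to 2 with 1 library left out. Of the 18 most alike genes over all libraries, 11 were the same by Spearman correlation, and of the 18 most alike by deviations from group means 8 were the same without iPS WT replicate 2.

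For members above the 3-read floor, some values changed sign. For iPSC clones against ESCs in KO they were Zscan4c -0.15, Zscan4d -0.23 and -0.06, Zscan4f -0.19 and -0.04 and Tcstv3 -0.19, without iPS KO replicate 2 or ESC KO replicate 3. With 1 library left out the ranges were -0.15 to 0.33 for Zscan4c, -0.23 to 0.27 for Zscan4d, -0.19 to 0.31 for Zscan4f and -0.19 to 1.12 for Tcstv3. For KO against WT in Pramef8 the lowest values were -0.03 in MEFs (up to 0.37), -0.01 at day 3 (up to 0.10) and -0.01, -0.01 and -0.00 at day 5 (up to 0.01). Below the floor signs moved further: with D3 KO replicate 1 left out the day 3 value of Zscan4c turned negative, and over the alternatives Tcstv3 ran from -0.94 to 2.73 and Zfp352 from -2.09 to 0.34 at day 3, and Tcstv3 from -1.99 to 0.13 at day 5. The difference of the KO effect between iPSC clones and day 7, where the day 7 values are below the floor, ran from -2.02 to 1.16 for Zscan4c, -1.03 to 1.91 for Zscan4d and -2.04 to 0.22 for Zscan4f. The cause of these changes was not tested. A replicate block changed no call among the 6 genes. WT and KO libraries with the same replicate number correlated at -0.120 to 0.287 in deviations from group means. At days 3, 5 and 7 all of these values were above 0, from 0.059 to 0.287. Libraries with different numbers were not compared, so whether same-numbered samples share more than a number was not tested. Zfp352 and Tcstv3 are limited by depth, with few reads in each library.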
